A study of Gallus gallus with 300 samples.

Results

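The hair cells of the chicken utricle are described here from single-cell RNA sequencing of wild-type chickens at posthatch day 7. They were chosen by a rule on measured values: a cell was called a hair cell where its mean log2(CPM + 1) over OTOF, CHRNA10, TMPRSS3, LRTOMT and CLIC5 exceeded that over GJB6, GJB2, SLC1A3, OTOGL and JAG1, with CPM the counts of a gene scaled to a total of 1000000 per cell. The series holds 300 cells, of which 24 did not reach 1000 genes and 50000 counts. Of the cells kept, the rule left 94 as supporting cells and called the others hair cells, with 34, 38, 31, 41 and 38 hair cells on plates 2 to 6, beside 15, 12, 30, 22 and 15 supporting cells. The hair cell share was 65.9% (exact 95% binomial interval 60.02% to 71.5%, counting error only), and over the 5 plates it was 69.4%, 76%, 50.8%, 65.1% and 71.7% (mean 66.6% ± 9.66, SD over plates). The 10 genes of the rule chose the cells, so they are set aside in every ranking below.

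The study dissected utricles, peeled the sensory epithelium from the underlying tissue with thermolysin, and pooled 4 to 8 epithelia per experiment before dissociation. Viable cells were sorted singly into 96-well plates in 2 batches of 270 cells each, and full-length cDNA was primed with oligo-dT and amplified over 22 PCR cycles. All cells belong to 1 group, and the labels tie no cell to an animal or to a sort batch, so the animal behind a cell and the batch of a plate were not used here. With neither a second condition nor known animals there was no test to run. An SD over the 5 plates measures the spread between plates, whose cells may share animals, and differences between hair and supporting cells are descriptions, since the classes were cut from the same cells.

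A hair cell held a median of 3469 genes (lowest 1046, highest 5603), against 1823.5 genes (lowest 1007, highest 4170) in supporting cells. Total counts per hair cell had a median of 432175 (lowest 66490, highest 1234012), against 322279 (lowest 73746, highest 808619) in supporting cells. When every cell was thinned to 50000 counts, which left out no cell, hair cells still held a median of 2931 genes and supporting cells 1633.5. The hair cell of lowest total, on plate 6, had 66490 counts in 1111 genes, and 3 other hair cells held fewer genes. It gave the highest value of 16 of the 25 genes named below as most variable. The ranking of variable genes is given with and without it, as are values of some of the genes it led.

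Hair cells are the mechanoreceptors of the inner ear. A bundle of actin-filled stereocilia on the apical surface is deflected by movement of the overlying otolithic membrane, tip links between stereocilia pull open transduction channels, and the cell signals to afferent neurons by releasing glutamate at ribbon synapses. In the vestibular organs of birds and mammals, type I hair cells are enclosed by an afferent calyx and type II hair cells are contacted by bouton endings, and the utricle has a central striola whose hair cells differ from those around it. Birds, unlike adult mammals, readily replace lost hair cells from supporting cells.

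Marker genes the rule did not use were read first. Their lists were chosen with earlier results of these data known, so their counts describe the classes and are no independent check of the label. Of 17 measured hair cell markers outside the rule, 17 were at least 2-fold higher in hair than in supporting cells, a fold that 27.7% of all 10667 measured genes reached in that direction. A gene counted as measured when at least 5 cells had 10 CPM or more, and folds were taken on means with 1 CPM added. Of 15 measured supporting cell markers outside the rule, 15 were at least 2-fold lower in hair cells, against 24.9% of all measured genes. The shares of 27.7% and 24.9% are the ones to set beside the counts of every list below. For counts of genes that reached 10 CPM in at least 50% of hair cells, the share of all measured genes was 17.1%.

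GFI1, a zinc finger transcription factor that mouse hair cells need to survive, averaged 1551 ± 131.5 CPM in hair cells and 0.450 ± 0.748 CPM in supporting cells (SD, n = 5 plates each). Its plate means lay between 1374 and 1745 CPM in hair cells, and 96.2% of hair cells had it at 10 CPM or more, against 2 of 94 supporting cells. MYO7A, an unconventional myosin at the upper end of the tip link, was found in 75.8% of hair cells and 2.13% of supporting cells. Opposite values were seen for HES5, a transcriptional target of Notch, at 64.6 ± 36.2 CPM in hair cells and 4530 ± 1583 CPM in supporting cells. SPARC, a secreted matrix glycoprotein, averaged 41.4 ± 29.2 CPM in hair cells and 4411 ± 1799 CPM in supporting cells.

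Counts of supporting cell markers were not wholly missing from the hair cells. The summed CPM of the supporting cell markers outside the rule was 0 in 51 hair cells, with a median of 141.6 CPM and a highest value of 7038 CPM per hair cell, against 558, 18940 and 59771 CPM as lowest, median and highest per supporting cell. Within the rule itself, GJB6, a gap junction connexin, averaged 261.7 ± 99.9 CPM in hair cells and reached 10 CPM in 52 of them, with 21.6% of its summed CPM in 1 cell. The source of these counts and their part in the values below were not tested.

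The margin of the rule was wide for most cells. The hair cell gene mean exceeded the supporting cell gene mean by a median of 7.58 log2 units in hair cells (lowest 0.283, highest 10.8), and the same difference was -9.998 (lowest -12.6, highest -0.620) in supporting cells. Just inside the limit lay cells at 0.283, 0.660 and 0.691, with 4668, 4606 and 5043 genes, and just outside it cells at -0.620, -1.32 and -1.37, with 3242, 2054 and 1605 genes. Those inside had hair cell gene means of 8.73, 7.93 and 9.36 and supporting cell gene means of 8.45, 7.27 and 8.67. Those outside had 6.15, 0 and 0, and 6.77, 1.32 and 1.37. The cells at -1.32 and -1.37 thus held little of either marker set, as the median supporting cell gene mean of supporting cells was 10.2. The 7 hair cells within 2 log2 units of the limit had a median of 4177 genes and the other hair cells 3457. Cells were sorted 1 to a well and no doublet caller was run. With the cells near the limit left out, all of the 30 abundant genes named below were the same, and 23 of the 25 most variable.

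**Figure D1:**
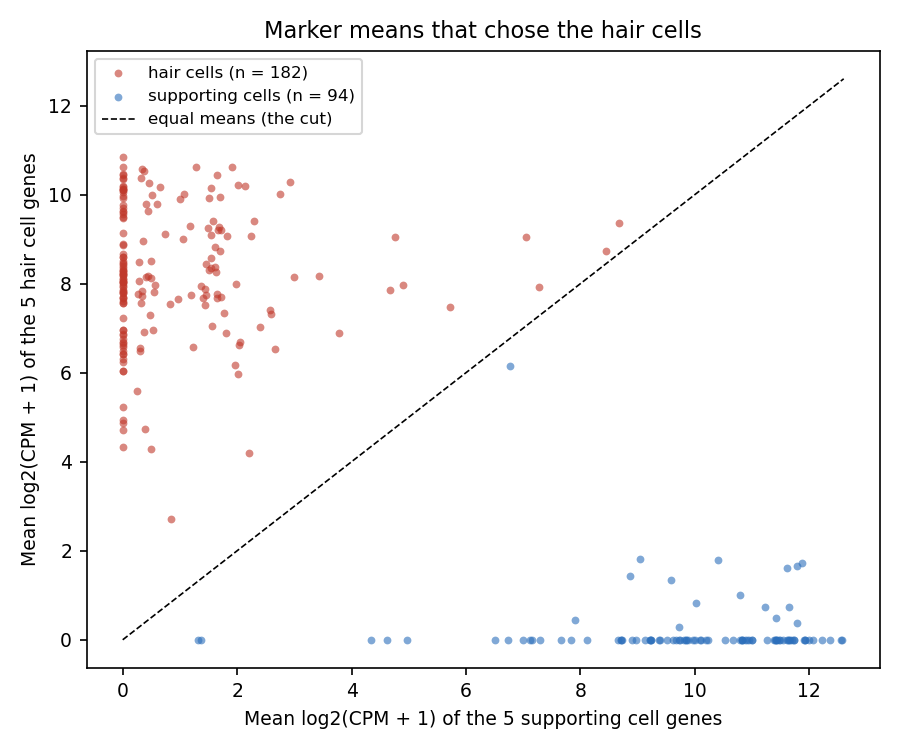
Mean log2(CPM + 1) of the 5 supporting cell genes of the rule (horizontal) and of the 5 hair cell genes (vertical), 1 point per kept cell, hair cells listed before supporting cells, with a dashed line where the means are equal. The hair cells lie above the line and the 94 supporting cells below it, and 7 hair cells lie within 2 log2 units of it.

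Markers of other cell types were uneven in the hair cells. Some members of the stromal, endothelial, immune, glial and melanocyte lists were at 0, and others were found in part of the cells. No member of the neuronal list was at 0 in all hair cells. COL1A1, COL3A1, DCN, PDGFRA, PDGFRB and TWIST1 of the stromal list were at 0 in every hair cell, while VIM, an intermediate filament gene of many cell types, reached 10 CPM in 73.1% of hair cells and 57.4% of supporting cells. ERBB3, FABP7 and GFAP of the glial list were at 0 in every hair cell, as were FLT1 of the endothelial list and CSF1R and C1QA of the immune list, and PTPRC reached 10 CPM in 1 hair cell. Of members that were found, PMP22, a myelin gene on the glial list, reached 10 CPM in 51 hair cells and 11 supporting cells, MBP in 17 hair cells and 24 supporting cells, and CNP in 14 hair cells and 32 supporting cells. PECAM1, an adhesion gene of endothelial and blood cells, reached 10 CPM in 40 hair cells, the highest at 2484 CPM, and in 26 supporting cells. MITF, a transcription factor on the melanocyte list, did so in 34 hair cells and 16 supporting cells, and COL1A2, a chain of type I collagen, in 12 hair cells and 0 supporting cells. The summed CPM over the 9 stromal genes had a lowest, median and highest value of 0, 317 and 2002 in hair cells, against 0, 131.1 and 6323 in supporting cells. Among neuronal markers, RBFOX3 reached 10 CPM in 59 hair cells and 1 supporting cell, TUBB3 in 41 hair cells and 0 supporting cells, and SNCG in 31 hair cells and 2 supporting cells. NEFL did so in 9 hair cells and 18 supporting cells, ELAVL4 in 33 and 28, and NTRK3 in 1 and 4. Of 7 measured neuronal genes, 3 were at least 2-fold higher in hair cells and 3 lower, beside 27.7% and 24.9% of all measured genes. Summed CPM per cell had a median and highest value of 67.8 and 2172 in hair cells, against 0 and 2179 in supporting cells, over 9 neuronal genes, and of 0 and 1099, against 72.3 and 34429, over 10 glial genes. The medians were 0 in both classes over the 4 endothelial, 7 immune and 6 melanocyte genes, with highest values of 2484, 1465 and 690 CPM in hair cells, against 2341, 25766 and 3951 CPM in supporting cells.

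The shares held by leading genes were read without the 10 genes of the rule. The 10 leading genes of each hair cell took a median of 12.8% of its counts (lowest 7.02%, highest 19.3%), against 9.66% in supporting cells. The median share of the single leading gene was 3.66% in hair cells and 1.79% in supporting cells. The genes left out held GJB6, at 23367 CPM on average in supporting cells, and OTOF, at 4832 CPM in hair cells. Shares with these genes kept were not computed, so the classes cannot be ranked by how concentrated their counts are. At the other end, the 500 leading genes took 60.3% in hair cells and 72.9% in supporting cells. The 30 genes of highest mean CPM in hair cells held 17.4% ± 0.736 of hair cell counts and 6.29% ± 0.413 of supporting cell counts (SD, n = 5 plates). Of those 30 genes, 19 were at least 2-fold higher in hair cells, 9 of them at least 16-fold, 10 were within 2-fold, and ITM2A was at least 2-fold lower. These 30 were picked for high values in hair cells, so that split is a description.

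CPM is not adjusted for transcript length, and a longer transcript gives more fragments. The ranking is therefore one of shares of the counts, and the CPM values of the classes below compare cells for the same gene. The measures of variation further below do set each gene against genes of near mean CPM, whatever their transcript lengths.

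CKB, the brain-type creatine kinase that regenerates ATP from phosphocreatine, took the largest share. Its plate means in hair cells were 30318, 32754, 26869, 32715 and 30181 CPM, with a lowest, median and highest hair cell at 617, 30466 and 63040 CPM. CKB reached 10 CPM in every hair cell. On average it stood at 30567 ± 2413 CPM in hair cells and 1685 ± 298.8 CPM in supporting cells, a difference of 4.18 on the log2 scale. No plate mean of any other gene of the 30 reached the lowest plate mean of CKB.

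Around it stood genes of glycolysis that differed less between the classes. GAPDH, the glyceraldehyde phosphate dehydrogenase, averaged 8612 ± 539 CPM in hair cells and 7177 ± 1441 CPM in supporting cells. LDHB, a lactate dehydrogenase subunit, averaged 4868 ± 560 CPM in hair cells and 3210 ± 275.2 CPM in supporting cells, and PGK1, the phosphoglycerate kinase, 2440.1 ± 417 CPM in hair cells and 1259 ± 219.6 CPM in supporting cells. ENO1, an enolase, had 1808 ± 190.3 CPM in hair cells and 1877 ± 243.9 CPM in supporting cells. Of 16 measured genes of glycolysis and the creatine system, 3 were at least 2-fold higher in hair cells and 2 lower. Over all measured genes the shares were 27.7% higher and 24.9% lower. The group as a whole took 5.35% ± 0.413 of hair cell counts and 1.94% ± 0.256 of supporting cell counts. CKB was the main part of the hair cell figure.

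CXCL14, a secreted chemokine, ranked second. Its plate means in hair cells were 18754, 16809.8, 15293, 13055 and 11570.0 CPM, and single hair cells had 0, 12755 and 45284 CPM as the lowest, median and highest. It reached 10 CPM in 97.3% of hair cells and in 14 of 94 supporting cells, where its plate means lay between 47.2 and 170.1 CPM. The average was 15096 ± 2870 CPM in hair cells and 102.5 ± 53.4 CPM in supporting cells, 7.19 apart on the log2 scale, and the plate means of the classes did not overlap.

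HSP90AA1, OCM, TSPAN13 and GAPDH followed, and their plate means overlapped, so that their order is not fixed by these data. HSP90AA1, a cytosolic chaperone, averaged 9784 ± 1512 CPM in hair cells and 6706 ± 2132 CPM in supporting cells, with overlapping plate means. Of its relatives, HSPA8 averaged 7823 ± 1148 CPM in hair cells and 4829 ± 413 CPM in supporting cells, and HSPA2 6988 ± 1247 CPM in hair cells and 2483 ± 1359 CPM in supporting cells. Reads shared by HSPA2 and HSPA8 were divided between them by estimation, so their separate values are uncertain. Among the 24 measured genes of stress and early response, 4 were at least 2-fold higher and 14 at least 2-fold lower in hair cells: EGR1, an immediate early transcription factor, had 227.8 ± 116.1 CPM in hair cells and 3814 ± 1821 CPM in supporting cells.

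TSPAN13, a tetraspanin of the membrane, averaged 9023 ± 1095 CPM in hair cells and 1691 ± 394 CPM in supporting cells. Its hair cell plate means lay between 7904 and 10269 CPM, above the highest supporting cell plate mean of 2312 CPM.

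Several of the abundant genes encode calcium-binding proteins. The 19 measured genes of calcium handling took 2.46% ± 0.239 of hair cell counts and 0.334% ± 0.0374 of supporting cell counts. OCM encodes oncomodulin, a small EF-hand calcium buffer. Its plate means in hair cells were 8595, 8594, 9447, 9795 and 11969 CPM, and it averaged 9680.0 ± 1384 CPM in hair cells and 35 ± 22 CPM in supporting cells. Single hair cells spanned the widest range of the 30 genes by coefficient of variation (CV, SD over mean, 1.43): the lowest, median and highest cell had 0, 2199 and 74154 CPM, and 90.1% of hair cells had 10 CPM or more.

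CALB2, or calretinin, is another EF-hand buffer. Its hair cell plate means were 3216, 2671, 2310.1, 2183 and 3012 CPM, and it averaged 2678 ± 442 CPM in hair cells and 41.3 ± 44.3 CPM in supporting cells. It was also uneven across cells, with a CV of 1.16 and a lowest, median and highest hair cell at 0, 1839 and 17457 CPM.

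CALM2 encodes calmodulin, the calcium sensor found in all eukaryotic cells. It averaged 6095 ± 824 CPM in hair cells and 1218 ± 286.5 CPM in supporting cells, and its value is uncertain where reads match other genes. CABP1, a calcium-binding protein related to calmodulin, averaged 1219 ± 216.9 CPM in hair cells and 14.5 ± 14.1 CPM in supporting cells.

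Of the cytoskeletal genes among the 30, MYO6 stood out. It encodes the myosin that walks towards the minus end of actin filaments and anchors the stereocilia base. Its plate means in hair cells were 5657, 4484, 4813, 4330.1 and 3190.3 CPM, and 99.5% of hair cells had it at 10 CPM or more. Single hair cells had 0, 4162 and 9769.9 CPM as the lowest, median and highest. The average was 4495 ± 892 CPM in hair cells and 664 ± 87.6 CPM in supporting cells. TUBB4B, a beta tubulin of cilia, averaged 4588 ± 748 CPM in hair cells and 2160 ± 539 CPM in supporting cells.

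STARD10, a phospholipid transfer protein, averaged 3527 ± 414 CPM in hair cells and 40.7 ± 33.01 CPM in supporting cells, and was found in every hair cell and 14 supporting cells. OSBPL1A, a sterol-binding protein of late endosomes, averaged 4226 ± 490 CPM in hair cells and 54.01 ± 74.6 CPM in supporting cells. LPGAT1, an acyltransferase for lysophosphatidylglycerol, averaged 3187 ± 492 CPM in hair cells and 60.9 ± 58.3 CPM in supporting cells. TMEM255B, a membrane protein, and B3GNTL had log2 ratios of 6.99 and 7.05.

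ITM2A, a small membrane protein, was the exception in the list: it averaged 3080.0 ± 243.4 CPM in hair cells and 7784 ± 1191 CPM in supporting cells, and its plate means did not overlap. UBB, which encodes ubiquitin, H3F3B, a replacement histone, LAMP1 of the lysosome and TSPAN3 were each within 2-fold between the classes.

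**Figure D2:**
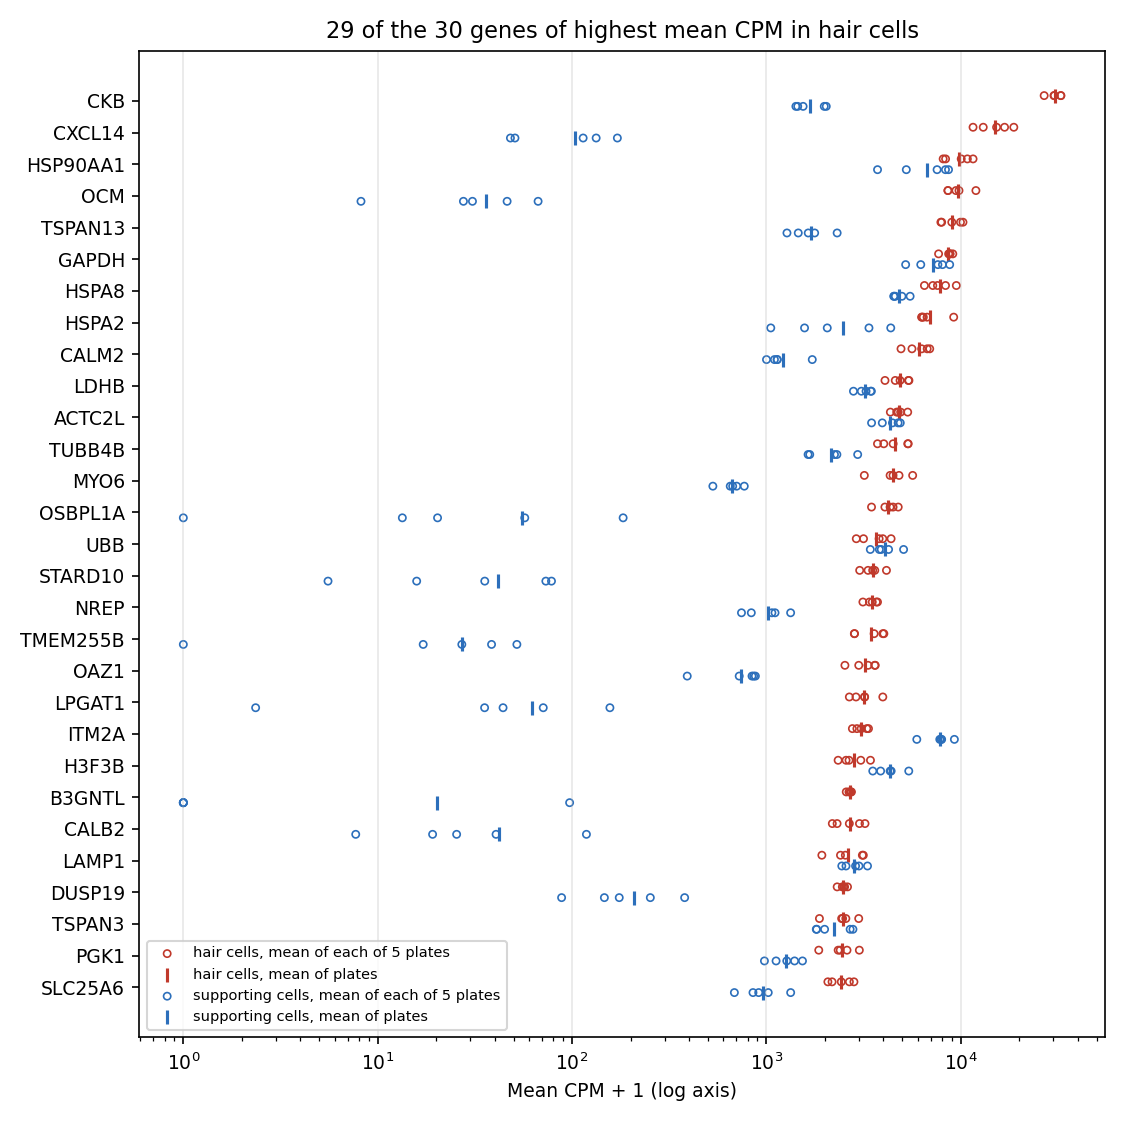
Mean CPM + 1 on a log axis for 29 of the 30 genes of highest mean CPM in hair cells, each gene in a row with hair cells above supporting cells, circles for the 5 plates and a bar for their mean. CKB lies highest in hair cells at 30567 CPM, CXCL14 and OCM lie over 100-fold apart between the classes, and ITM2A is higher in supporting cells.

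Across all genes, 1827 (17.1% of those measured) reached 10 CPM in at least 50% of hair cells, against 732 in supporting cells. At least 90% of cells held 2.30% of the measured genes in hair cells and 0.806% in supporting cells. After thinning to 50000 counts, 1706 genes were found in at least 50% of hair cells and 697 in as many supporting cells, and at 90% of cells the shares were 2.01% in hair cells and 0.741% in supporting cells. Of the measured genes, 7 were found in every hair cell, among them CALM2, CKB, H3F3B, HSP90AA1, STARD10 and an uncharacterised locus, LOC419602, and 99 measured genes were found in none.

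The genes with the least variation for their level were taken from those in at least 90% of hair cells, which include 36 of the 72 measured ribosomal protein genes and 37 of the 82 measured genes of oxidative phosphorylation. Variation was read as the squared CV over hair cells, relative to the running median of the genes nearest in mean. The 15 lowest by this relative measure had a median CV of 0.829 (0.637 to 0.967). The 30 abundant genes had a lower median CV, of 0.576. Over all measured genes the median CV was 3.29, but their median detection was 17.6% of hair cells, so that value is not a like comparison. The 15 included the ribosomal protein genes RPL39, RPL36, RPL38, RPS12, RPS19, RPLP2 and FAU. They also held COX8A and NDUFB7 of the respiratory chain and COPS9 of the signalosome. Over all measured genes, 27.7% were at least 2-fold higher in hair cells and 24.9% lower. Of the 15, 6 were at least 2-fold higher in hair cells, 3 of them at least 16-fold, 8 were within 2-fold, and RPS12 was at least 2-fold lower. Genes had to be found in at least 90% of hair cells, with no such demand on supporting cells. The split of the 15 is therefore a description and cannot be weighed against the shares of all measured genes.

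GPX2, a glutathione peroxidase, was one of these 3. It averaged 207.8 ± 44.4 CPM in hair cells and 2.55 ± 4.79 CPM in supporting cells, and reached 10 CPM in 94.5% of hair cells and 2 of 94 supporting cells. RAB15, a small GTPase of endosomal recycling, averaged 214.7 ± 23.01 CPM in hair cells and 5.31 ± 10.4 CPM in supporting cells. RBM38, an RNA-binding protein, averaged 158.3 ± 31.7 CPM in hair cells and 3.78 ± 5.40 CPM in supporting cells. By contrast SVBP, a partner of the enzymes that remove tyrosine from tubulin, had 168.2 ± 14.01 CPM in hair cells and 175.4 ± 53.3 CPM in supporting cells.

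The measured genes of the transduction channel list were mostly higher in hair cells. Their mean CPM there had a median of 259.5, against 28.02 over all measured genes. Of 10 measured genes of the transduction channel list, 9 were at least 2-fold higher and 1 lower in hair cells, and 5 reached 10 CPM in at least 50% of hair cells. TMC1, the pore-forming channel subunit, averaged 348 ± 81.5 CPM in hair cells and 12.8 ± 20.7 CPM in supporting cells, and was found in 85.2% and 3.19% of them. TMC2, its relative, averaged 233.6 ± 124.8 CPM over hair cells, 43 of which had it, with plate means of 371, 53.1, 236.99, 324 and 182.4 CPM, and was at 0 in the 94 supporting cells. That count of 0 allows a share of up to 3.19% of supporting cells with a count at this depth, for counting error only, and says nothing of cells that hold the transcript below it. CIB3, a calcium- and integrin-binding protein, averaged 2041 ± 351 CPM in hair cells and 16.99 ± 23.5 CPM in supporting cells, and CIB2 285.4 ± 105.2 CPM in hair cells and 119.01 ± 66.5 CPM in supporting cells. TMIE and LHFPL5, other parts of the complex, averaged 61.5 ± 20.8 and 346 ± 34.6 CPM in hair cells, against 0.0165 ± 0.0369 and 19.8 ± 14.9 CPM in supporting cells.

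The links between stereocilia and the actin core were read next. A list of tip and ankle link genes also held related genes, among them PTPRQ and OTOG. Of its 11 measured genes, 10 were at least 2-fold higher in hair cells and 8 reached 10 CPM in at least 50% of hair cells. CDH23 and PCDH15, the cadherins of the tip link, averaged 76.4 ± 18.6 and 121.9 ± 43.3 CPM in hair cells, against 0.137 ± 0.307 and 1.60 ± 3.05 CPM in supporting cells. PTPRQ, a receptor phosphatase of the shaft connectors, averaged 1096 ± 488 CPM in hair cells and 12.2 ± 21.9 CPM in supporting cells. OTOG, which encodes otogelin of the otolithic membrane, was within 2-fold, at 789 ± 508 CPM in hair cells and 901 ± 339.7 CPM in supporting cells.

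Of 26 measured genes of the bundle's actin, 11 were at least 2-fold higher and 5 at least 2-fold lower in hair cells. All measured genes gave 27.7% and 24.9%. XIRP2, an actin-binding protein of stereocilia, averaged 837 ± 264.9 CPM in hair cells and 0.482 ± 1.08 CPM in supporting cells. ESPN and FSCN2, which cross-link the actin of the core, averaged 131.1 ± 28.3 and 110.9 ± 23.2 CPM in hair cells, against 2.13 ± 4.28 and 0.144 ± 0.321 CPM in supporting cells. ACTB, one of the actins, was lower in hair cells at 1166 ± 154.3 CPM, against 6572 ± 1241 CPM in supporting cells, and the division of reads among actin genes makes its level uncertain. Of 11 measured motor genes, 8 were at least 2-fold higher in hair cells and 1 lower.

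At the synapse, 17 of 24 measured genes were at least 2-fold higher in hair cells and 3 lower, and the group took 0.422% ± 0.0962 of hair cell counts and 0.0809% of supporting cell counts. SLC17A8, the vesicular glutamate transporter VGLUT3, averaged 1064 ± 402 CPM in hair cells and 12.8 ± 27.8 CPM in supporting cells, with hair cell plate means of 1255, 953, 1646, 874 and 593 CPM. SYT14, a synaptotagmin, averaged 651 ± 137.96 CPM in hair cells and 0.463 ± 0.809 CPM in supporting cells. CACNA1D, the calcium channel that triggers release, averaged 239.7 ± 134.7 CPM in hair cells and 5.69 ± 9.89 CPM in supporting cells, and was found in 59.3% and 2.13% of them. CTBP2, whose RIBEYE form builds the ribbon, averaged 182.3 ± 47.8 CPM in hair cells and 65.5 ± 29.4 CPM in supporting cells.

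Of 20 measured channels and receptors, 16 were at least 2-fold higher in hair cells and 3 lower. Of the 20, 6 reached 10 CPM in at least 50% of hair cells, as did 17.1% of all measured genes. CHRNA9, a subunit of the nicotinic receptor of efferent synapses, averaged 272.6 ± 143.9 CPM in hair cells and 6.78 ± 8.60 CPM in supporting cells. Plates accounted for 14.2% of the variance of its log2 values over hair cells, against a median of 2.30% over 6980 genes. KCNJ2, an inward rectifier potassium channel, averaged 459 ± 143.5 CPM in hair cells and 15.2 ± 18.9 CPM in supporting cells.

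Of 18 measured secretory and peptide genes, 12 were at least 2-fold higher in hair cells and 4 lower. SCG3, a granin of secretory granules, averaged 1920.4 ± 165.3 CPM in hair cells and 227.9 ± 96.9 CPM in supporting cells and was found in 97.3% of hair cells. CHGA, another granin, averaged 816 ± 134.4 CPM in hair cells and 3.41 ± 4.67 CPM in supporting cells. BDNF, the neurotrophin on which vestibular afferents depend, averaged 1210.5 ± 167.1 CPM in hair cells and 41.5 ± 37.5 CPM in supporting cells. PENK, the enkephalin precursor, was present in only 17 of the hair cells, with a highest value of 5204 CPM. With at least 2000 genes and 100000 counts per cell, PENK averaged 137.05 CPM in hair cells and 27.5 CPM in supporting cells.

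Among 44 measured transcription factors, 15 were at least 2-fold higher and 9 at least 2-fold lower in hair cells, and 10 reached 10 CPM in at least 50% of hair cells. LHX3, a LIM homeodomain factor of hair cells, averaged 755 ± 84.2 CPM in hair cells and 19.1 ± 40.5 CPM in supporting cells. ATOH1, the factor that starts hair cell differentiation, averaged 20.3 ± 10.5 CPM in hair cells and 8.78 ± 7.04 CPM in supporting cells, in 51 and 11 cells. POU4F3, needed for hair cell maturation in mice, averaged 11.97 ± 3.94 CPM in hair cells and 0.0575 ± 0.129 CPM in supporting cells, in 55 hair cells. SOX2, a factor of supporting cells and type II hair cells in mice, reached 10 CPM in 12 hair cells and 7 supporting cells.

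Notch pathway genes were mostly lower in hair cells, with 13 of 19 measured at least 2-fold lower and 3 higher. The ligand JAG2 averaged 147.1 ± 21.9 CPM in hair cells and 17.8 ± 24.9 CPM in supporting cells, and the ligand DLL1 47.3 ± 29.9 CPM in hair cells and 8.04 ± 11.2 CPM in supporting cells. Of 47 measured kinocilium genes, 23 were at least 2-fold higher and 2 lower in hair cells. RSPH1, a radial spoke protein, averaged 673 ± 97.5 CPM in hair cells and 23.1 ± 30.5 CPM in supporting cells, and DNAH5, a heavy chain of outer arm dynein, 261.4 ± 109.3 CPM in hair cells and 8.66 ± 19.3 CPM in supporting cells. Of 20 measured genes of other deafness loci, 8 were higher and 6 lower, beside 27.7% and 24.9% of all measured genes. Among the 20, DFNB59, which encodes pejvakin, averaged 440.4 ± 72.1 CPM in hair cells and 0.0900 ± 0.126 CPM in supporting cells.

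Gene families taken by name gave a broader view. Of 82 measured genes of oxidative phosphorylation, 42 were at least 2-fold higher in hair cells and 0 lower, and the family took 2.72% ± 0.219 of hair cell counts and 1.30% ± 0.180 of supporting cell counts. COX6C, a subunit of cytochrome c oxidase, averaged 1892 ± 295.5 CPM in hair cells and 411 ± 261.01 CPM in supporting cells. The 72 ribosomal protein genes held 2.02% ± 0.382 of hair cell counts and 2.58% ± 0.615 of supporting cell counts, with 3 at least 2-fold higher and 8 lower. Of 19 measured genes of the vacuolar proton pump, 12 were at least 2-fold higher and 2 lower in hair cells, with ATP6V1G1 at 1675 ± 312 CPM in hair cells and 458 ± 159.8 CPM in supporting cells. Collagens and laminins ran the other way, with 6 of 32 higher and 23 lower in hair cells. Of measured zinc finger genes, 21 (17.8%) were higher and 37 (31.4%) lower, and of solute carriers 60 (32.3%) were higher and 52 (27.96%) lower, beside 27.7% and 24.9% of all measured genes. SLC9A9, an endosomal sodium-proton exchanger, averaged 1989.8 ± 497 CPM in hair cells and 191.99 ± 135.4 CPM in supporting cells. Potassium channel genes had 26 of 38 higher and 7 lower, proteasome genes 7 of 37 higher and 3 lower, and translation factors 6 of 55 higher and 6 lower. COL13A1, a transmembrane collagen, was among the 6 collagen and laminin genes that were higher, at 201.5 ± 52.1 CPM in hair cells and 5.99 ± 5.95 CPM in supporting cells.

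Among redox and metal genes, 4 of 25 were at least 2-fold higher and 7 lower in hair cells. Over all measured genes the shares were 27.7% and 24.9%. SOD1, the cytosolic superoxide dismutase, averaged 1202 ± 179.8 CPM in hair cells and 430.5 ± 103.3 CPM in supporting cells. FTH1, the iron-storing ferritin heavy chain, averaged 2033 ± 280.4 CPM in hair cells and 5318 ± 735 CPM in supporting cells. For cell cycle genes, 2 of 21 were at least 2-fold higher and 11 lower.

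Variation between hair cells was then ranked over the 6463 genes found in 10% to 90% of hair cells and in at least 2 hair cells of every plate. By the squared CV, the 25 leading genes included LOXHD1, PCNT, TTLL5, ANGPT1, MYH9, CA7, RIMS1 and KCNAB1. The hair cell of lowest total gave the highest value of 16 of the 25, and 6 hair cells gave the highest value of all 25. For 24 of the 25 genes, and for 6901 of all 10667 measured genes, more than 10% of the summed CPM lay in 1 cell. With that shallow cell left out, 9 of the 25 stayed in the list: LOXHD1, ANGPT1, CA7, RIMS1, IPO7, TSC2, C9ORF58, KCNAB1 and CALCRL. Several of these rest on another single cell. RIMS1, IPO7, TSC2 and CALCRL had their highest value in the same hair cell of plate 4, which held 1073 genes and between 45.7% and 54.3% of their summed CPM. Their means were 65.9, 60.9, 67.2 and 43.8 CPM with that cell, and 33.5, 26.1, 33.8 and 18.3 CPM without it. ANGPT1 had 71.9% of its sum in a hair cell of plate 5 with 1046 genes, and averaged 34.6 CPM with that cell and 10.8 CPM without it. C9ORF58 averaged 188.6 CPM in hair cells and 12317 CPM in supporting cells, and its highest hair cell, at 8259 CPM, lay 0.691 log2 units inside the class limit. It was not among the 25 when cells within 2 log2 units of that limit were left out. The excess of PCNT, a centrosome protein, was 3.60 log2 units with the hair cell of lowest total and 0.37 without it. That of MYH9, a non-muscle myosin, was 3.35 with the same cell and -0.47 without it. LOXHD1 had 4.12 with it and 4.13 without it, and CA7 3.29 and 3.30.

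The SD of log2(CPM + 1), which weighs single high cells less, gave a list that was steadier. Over 11 settings, which changed the cells, plates or scaling used, between 22 and 24 of its 25 genes were kept, and 18 genes were in every list. Those 18 included LOXHD1, LDHA, RASL11B, ACTB, CALB2, RGS2, TFPI, PTN, SERPINI1, KCNAB1, DNAJC12, KCNA10, FAIM2, GALNT9, KCNJ2, HSPB9 and OTOG. The 2 rankings shared 2 genes, LOXHD1 and KCNAB1.

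LOXHD1, a protein of stereocilia that mouse hair cells need to transduce once mature, led both. Its hair cell plate means were 430.5, 236.3, 1360.0, 1031 and 1509 CPM, and it reached 10 CPM in 66 hair cells, where its median was 980.3 CPM and its highest value 26476 CPM. That value came from plate 6, and another hair cell, on plate 4, had 26082 CPM. The means of plates 4 and 6 thus rest in part on 1 cell each. The average was 913 ± 561 CPM in hair cells and 6.31 ± 10.97 CPM in supporting cells. LDHA, the other main lactate dehydrogenase subunit, was found in 74.7% of hair cells and averaged 1406 ± 321 CPM in hair cells and 432 ± 72.2 CPM in supporting cells, while LDHB was found in 98.9%.

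Several of the variable genes encode potassium channels or their subunits. KCNAB1, a beta subunit, had hair cell plate means of 942, 750.5, 495, 587 and 457 CPM and was found in 54 hair cells, with a median of 1569 CPM there. It averaged 646 ± 200.2 CPM in hair cells and 38 ± 52.01 CPM in supporting cells. KCNA10, a Shaker-related channel, averaged 514 ± 92.7 CPM over hair cells, was found in 68 of them with a median of 544 CPM, and was at 0 in the 94 supporting cells.

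Others are secreted or bound to membranes. TFPI, an inhibitor of blood coagulation, averaged 990.3 ± 173.7 CPM in hair cells and 22.4 ± 31.4 CPM in supporting cells, and was found in 75.8% of hair cells. PTN, the growth factor pleiotrophin, averaged 711 ± 284.7 CPM in hair cells and 456 ± 117.1 CPM in supporting cells, and was found in 61.5% of hair cells and 78.7% of supporting cells. GALNT9, a glycosyltransferase, averaged 1034 ± 191.9 CPM in hair cells and 4.11 ± 8.87 CPM in supporting cells. Of another kind, DNAJC12, a co-chaperone, had 13.6% of its log2 variance between plates.

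**Figure D3:**
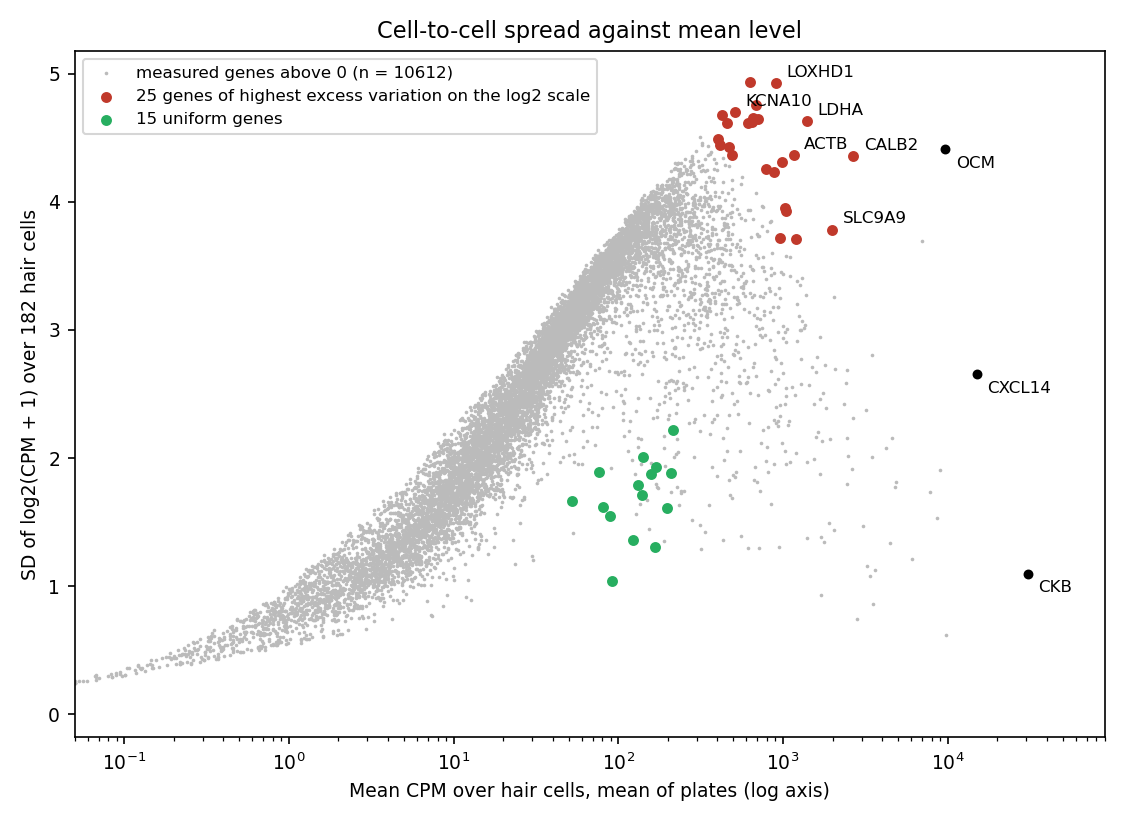
SD of log2(CPM + 1) over hair cells (vertical) against mean CPM in hair cells (horizontal, log axis), 1 point per gene, with the 25 genes of highest excess on this scale in red, the 15 uniform genes in green, and OCM, CKB and CXCL14 in black. CKB lies low at 1.10 and OCM high at 4.41, and the uniform genes lie below the bulk of genes at their level.

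Variable genes were then read together. Principal components were computed on the 1000 genes of highest excess in squared CV, and the first took 4.44% of their variance, and the next 2 took 3.56% and 3.10%. These shares are small, and the sign of a component is arbitrary. At 1 end of the first stood KCNQ5, LOXHD1, CA7, SYT12, ETNPPL and KCNAB1, and at the other CALB2, BEGAIN, GRAMD3, PTN, TFPI and ANO2. Plates accounted for 1.20% of the variance of its scores. Scored so that they rise towards the CALB2 end, cells had a Spearman correlation of 0.41 with genes per cell and of -0.77 with OCM. OCM was not among the component genes, since it was found in 90.1% of hair cells. The first component depended on the genes used. With genes ranked by excess on the log2 scale, it took 8.36% of the variance and kept 3 of the 12 genes at its ends. Its scores then had a Spearman correlation of 0.39 with those reported. With at least 2000 genes and 100000 counts per cell, 7 of the 12 stayed, and with a plate left out 9 to 11.

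KCNQ5, a voltage-gated potassium channel of the M-current family, had hair cell plate means of 358, 254.4, 314, 341 and 296.8 CPM. It reached 10 CPM in 35 hair cells, where its median was 1360 CPM, and in 8 supporting cells. Most of these hair cells held the other genes of that end: 33 of the 35 had LOXHD1, 32 had KCNAB1, 31 had CA7 and 29 had SYT12. CA7 is a cytosolic carbonic anhydrase and SYT12 a synaptotagmin, and both were at 0 in the supporting cells. The 33 were among 66 hair cells with LOXHD1, and the 29 among 31 with SYT12. Over all hair cells LOXHD1 was found in 36.3%, KCNAB1 in 29.7%, CA7 in 19.2% and SYT12 in 17.03%, and in hair cells without KCNQ5 LOXHD1 was found in 22.4% and SYT12 in 1.36%.

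The genes of either end were chosen for their weights on 1 component, so their presence in the same cells is a description. The genes of the opposite end were found in more cells. ANO2, a calcium-activated chloride channel, was found in 91 hair cells, of which 90 had CALB2 and 87 had BEGAIN. Both are common: CALB2 was found in 84.1% of all hair cells and in 69.2% of those without ANO2, and BEGAIN in 71.4% and 47.3%. Only 2 of the 91 ANO2 cells had KCNQ5. CALB2 and KCNQ5 were both found in 10 hair cells, which were 28.6% of the KCNQ5 cells and 6.54% of the CALB2 cells.

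Counted by cell, 34 hair cells held at least 4 of the 6 genes of the KCNQ5 end, and they came from every plate, with 6, 7, 6, 7 and 8 cells. At least 4 of the 6 genes of the CALB2 end were held by 64.8% of hair cells, with 23, 24, 23, 27 and 21 cells a plate. Only 2 cells met both counts, and 32 met neither. In the 34 cells OCM had a lowest, median and highest value of 7601, 27204 and 60832 CPM, and CALB2 0, 0 and 619 CPM. In the cells that met the CALB2 count alone, 63.7% of all, OCM had 0, 715 and 28368 CPM and CALB2 0, 2387 and 17457 CPM. CALB2 is one of the genes that chose these cells, and these values are a description.

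Depth was read in the same cells. Median genes per cell were 3232 in the 34 cells and 3590 in the cells of the CALB2 end, and median counts 404841 and 446223. CKB had a median of 26084 CPM in the 34 cells and 37064 CPM in those of the CALB2 end, and MYO6 5946 CPM in the 34 cells and 3738 CPM in those of the CALB2 end.

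**Figure D4:**
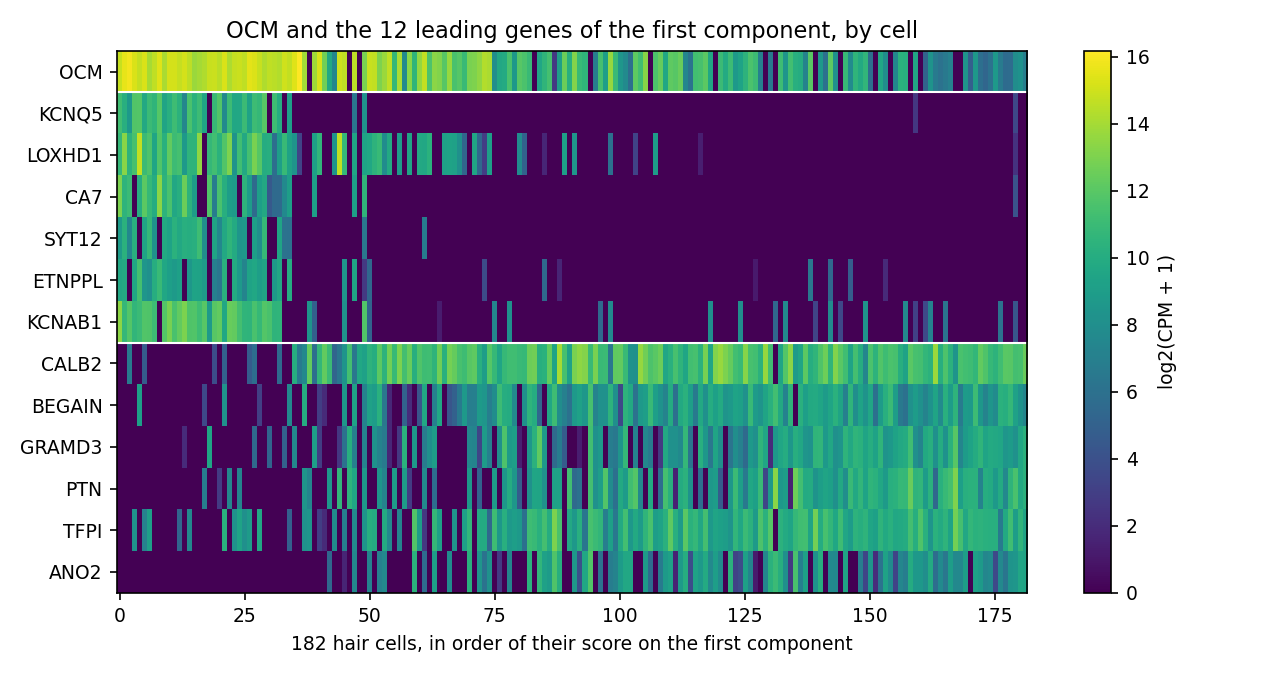
Log2(CPM + 1) of OCM, the 6 genes of the KCNQ5 end and the 6 genes of the CALB2 end (rows) in the hair cells (columns), ordered by their score on the first component. The KCNQ5 end genes fill 1 edge, where OCM is high, and CALB2 end genes fill the rest with gaps.

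OCM and CALB2 were set against each other directly. At 1000 CPM or more, 51 hair cells had OCM alone, 61 had CALB2 alone, 59 had both and 11 had neither. Their Spearman correlation over hair cells was -0.491, and within the plates it was -0.576, -0.544, -0.518, -0.556 and -0.339. All points share the scaling of each cell to its own total. Each plate held cells of all of the first 3 kinds: between 9 and 11 with OCM alone, between 9 and 15 with CALB2 alone, and between 8 and 16 with both.

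**Figure D5:**
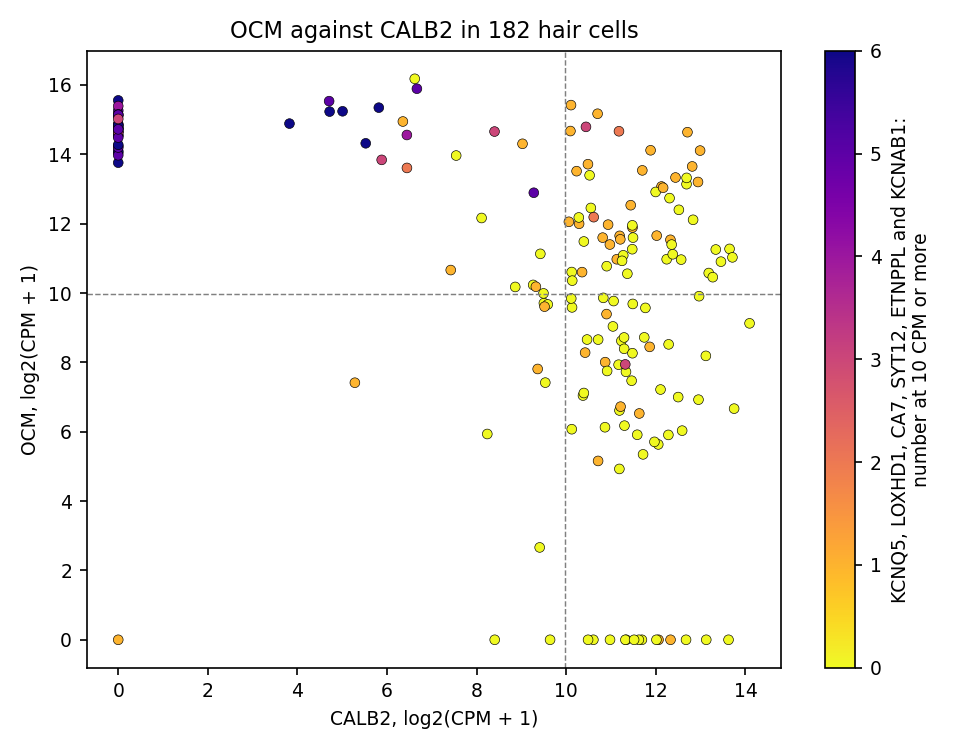
OCM (vertical) against CALB2 (horizontal) as log2(CPM + 1) in the hair cells, coloured by how many of the 6 genes of the KCNQ5 end the cell held, with dashed lines at 1000 CPM. Cells with 4 or more of these genes lie at 7601 CPM of OCM or above and at 619 CPM of CALB2 or below.

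Lists named for hair cell subtypes were read beside this. Of the 7 measured genes of the type I list, 6 were at least 2-fold higher in hair than in supporting cells, and of the 9 of the type II list, 7 were higher and 1 lower. OCM and KCNAB1 are on the type I list and CALB2 on the type II list, and OCM, LOXHD1 and TMC2 are on the striolar list. CRABP1, of the type I list, was broad: it was found in 91.8% of hair cells at 1354 ± 325 CPM, against 26.7 ± 42.3 CPM in supporting cells. Likewise SYT14 and LHX3, of the type II list, were found in 86.8% and 85.2% of hair cells. Of the 12 measured genes of developing hair cells, 8 were at least 2-fold higher and 2 lower. For the 9 striolar genes the counts were 8 and 1, and for the 7 extrastriolar genes 3 and 3. All measured genes gave 27.7% higher and 24.9% lower. No group of cells was given a subtype name here, and 59 hair cells held both OCM and CALB2 at 1000 CPM or more.

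The later components were smaller. The second had LOC428824, EYS, DST, DMD, TNC and LMO7 at one end and CALB2, MLXIP, GNG13, VSIG10L, FERMT2 and FXYD6 at the other, with 8.17% of its variance between plates. Its Spearman correlation with genes per cell was 0.53 and with the mean of the hair cell genes of the rule 0.56. The third had HVCN1, CTHRC1, ASS1, LOC107051857, KSR1 and STMN1 at one end and, among others, ATP8B1, PTN, CAB39L, FAIM2 and AMIGO2 at the other, with a correlation of 0.59 with genes per cell. The part of depth in these components was not tested.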

How the data were processed

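The authors deposited 1 table of estimated counts per cell, and 4.27% of the values above 0 were not whole numbers. Per the submitters' processing notes, FastQC, STAR and RSEM were used, with build and annotation not given in the sources used here. Estimated counts divide reads shared by near-identical genes, and libraries held no molecular identifiers, so intervals cover counting error only. Each table had 13643 rows and 13631 symbols, and 12 repeated symbols were summed. No cells had identical tables. Counts were scaled to CPM over each cell's total.

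The members and the gene lists were chosen with earlier results of these data known. The text names the 30 genes of highest mean (the mean of plate means), the 15 of lowest and the 25 of highest excess variation, 2 to 4 leading members of each list, and 6 genes at each end of 3 components. Excess variation is the residual of log2 squared CV from the running median of 201 genes, and the second measure uses the SD of log2(CPM + 1). The rule found 182 hair cells among 276 kept cells. A gene was detected at 10 CPM. Python 3.11.15, numpy 2.4.6, pandas 2.3.3, scipy 1.17.1 and matplotlib 3.10.9 were used, and the scripts were tested on simulated data. Alternatives changed the cell filter, normalization, pseudocount, plates left out and measure of variation. A few named genes are not reported here.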

Additional observations from a re-analysis of the deposited data

Results flagged for a closer look

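Of 72 sets of 5 plate means of named genes, 16 had 1 plate farther from the others than Dixon's 95% limit allows. Chance gives about 1 in 20 for sets not picked by their values. The 72 hold genes picked for high variation, often with much of their sum in 1 cell. The count of 16 therefore cannot be set against that rate. On plate 6, which holds the hair cell of lowest total, the outlying hair cell means were 140.95 CPM for RPL39, 233.3 for RPLP2, 468 for PCNT, 334 for TTLL5, 207.5 for MYH9, 517 for CRNKL1, 326 for DHX15, 751 for HERC2, 263.5 for 2KTGRL, 166.1 for CDC14A and 145.8 for PLA2G6. On plate 4 they were 202.3 CPM for IPO7, 224.7 for TSC2 and 136.9 for CALCRL, and on plate 5 they were 124.5 for ANGPT1 and 9199 for HSPA2, whose other plates lay between 6293 and 6710.2 CPM. All were the highest of the 5 plates. Causes were not tested.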

How the results depend on the processing

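No paired analysis was possible because the labels give 1 group with no numbers that pair cells, and the classes, which the markers split on each plate, were compared with no test. Of the 19 abundant genes at least 2-fold higher in hair cells, 19 had the higher plate mean in hair cells on all 5 plates. Those genes were picked by a fold taken from the same plate means, so this count is a description. Leaving out the cell of lowest total and rerunning the first component were chosen after seeing the data, as were the means without the cell of a gene's highest value. The hair cell share was 79.1% with at least 2000 genes and 100000 counts per cell, genes per hair cell were 2931 after thinning, and genes in at least 90% of hair cells were 417 under that stricter filter. Of the 30 abundant genes, 28 to 30 stayed in every setting, and 10 of 420 means moved by more than 1 SD, 9 of them with the median over cells in place of the mean. Of the 25 genes of highest excess, 5 stayed under the stricter filter, 11 with no filter, 9 without the cell of lowest total, 16 with median-of-ratios scaling, 2 with the SD of log2 values, and 9 to 23 with a plate left out. Genes at least 2-fold higher numbered 1880 with 10 CPM added and 2955 with 1 CPM added, both of 10667 measured genes. Genes at least 2-fold lower numbered 1643 where 20 cells had to hold a gene and 2657 where 5 did, and the stricter demand also leaves fewer measured genes. The shares of 27.7% and 24.9% given beside the lists are those of the main setting. Of the 12 genes of the first component, 3 stayed with genes ranked on the log2 scale, 7 under the stricter filter and 9 to 11 with a plate left out. Excess by the SD of log2 was negative for 16 of the 25 variable genes. Among the 9 kept without the cell of lowest total, excess turned negative for ANGPT1 (-0.13 stricter filter, -0.69 SD of log2), IPO7 (-0.53, -0.41), CALCRL (-0.13, -0.43), RIMS1 (-0.85 SD of log2) and TSC2 (-0.52 SD of log2). With a plate left out it ranged over -0.23 to 3.65 for ANGPT1, -0.086 to 3.44 for IPO7 and -0.36 to 3.07 for CALCRL, lowest without plate 5 for ANGPT1 and plate 4 for the others. The causes were not tested. The ranking in CPM per kb was not run, since transcript lengths were not used here.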
